A study of Mus musculus with 15 samples.

Results

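Neuropeptide signalling genes were followed in group 2 innate lymphoid cells (ILC2s) of the mouse lung. The set held 9 genes chosen by symbol, with earlier results of these data known when they were chosen. They were the neuropeptide receptor genes Nmur1, Vipr1, Vipr2 and Calcrl, the receptor partner genes Ramp1 and Ramp3, the peptide precursor genes Calca and Penk, and the convertase gene Pcsk1. A feature annotated with that symbol alone was found for 8 of the 9, 1 feature each, of 22180 genes with such a feature. Calca was not analysed here. No adrenergic gene was among the 9, although the set was named for adrenergic signalling as well, and adrenergic genes were counted as a separate list.

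The study compared ILC2s of naive and IL-33-exposed adults and of neonates on 15 arrays of total RNA. Effector adults, 3 arrays of females and 3 of males, received the cytokine IL-33 through the nose on 3 consecutive days, and their cells were taken 1 day after the last dose. Naive adults, 3 arrays of females and 3 of males, were 8 weeks old and had no treatment in the labels. The third state was naive neonates of 10 days, with 3 arrays and no sex in the labels. No genotype, strain, age of the effector adults, number of mice per array, sorting markers or vehicle treatment was given in the sources used here. An effect of IL-33 therefore cannot be told apart from one of dosing through the nose or of any age difference. The labels call the arrays of each group biological replicates, without the number of mice behind them. Where replicates did not come from separate mice the p-values measure technical spread only.

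ILC2s are tissue-resident lymphocytes that release type 2 cytokines, and they carry receptors through which nearby nerves and neuroendocrine cells act on them. Neuromedin U, acting through NMUR1, activates ILC2s and their cytokine release, vasoactive intestinal peptide (VIP) acts through VIPR1 and VIPR2, and calcitonin gene-related peptide (CGRP, encoded by Calca) acts through CALCRL paired with RAMP1. Noradrenaline from sympathetic nerves restrains lung ILC2s. Neuropeptides are made as long precursors that convertases such as PCSK1 cut.

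All values are log2 expression levels as deposited. Median levels of the 15 arrays lay between 4.44 and 4.64. Arrays of a group correlated at 0.962 to 0.974 within the effector groups, 0.911 to 0.960 within the naive adult groups and 0.904 to 0.925 among neonates. Naive male arrays 1 and 2 and neonatal array 2 correlated least with the others, at mean correlations of 0.895, 0.889 and 0.898, against 0.910 or more elsewhere. All 13 ILC2 marker genes with a feature lay above the background range in each state, where the background range ends at the upper quartile of 1373 olfactory and vomeronasal receptor genes (3.37 in effector adults, 4.07 in naive adults, 3.72 in neonates). The ILC2 markers Il1rl1 and Areg were not analysed here. Each neonatal array carried both Xist and transcripts of the Y chromosome, with Xist at 10.29, 9.44 and 10.04 and Kdm5d at 4.83, 5.53 and 5.34, so RNA of both sexes was present on each.

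In effector adults, 5 of the 8 measured genes differed from naive adults. Penk and Pcsk1 were higher, and Nmur1, Vipr2 and Ramp3 were lower. Calcrl, Ramp1 and Vipr1 did not pass the test, which was limma with an adjusted p under 0.05 over 16257 genes. The 5 called genes were 62.5% of the 8, beside 34.6% of all genes tested, where 23.7% of all genes were higher and 10.9% lower. The median difference of the 8 genes was -0.25 on the log2 scale, against 0.03 over all genes. Of all genes called, 68.5% were higher in effector adults, and 83.0% once arrays were centred on their medians, which moved the median of all genes to 0.17. The effector minus naive differences of the 8 genes kept their sign under that centring. All 8 genes passed the filter on dim features. Penk lay above that filter on 6 effector, 0 naive and 2 neonatal arrays, and the other 7 genes on all 15. Penk was therefore tested, and counted among the 5, through arrays where it was high. Because total RNA of a sorted population was measured, fewer cells that express a gene and less RNA of that gene per cell cannot be told apart.

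**Figure D1:**
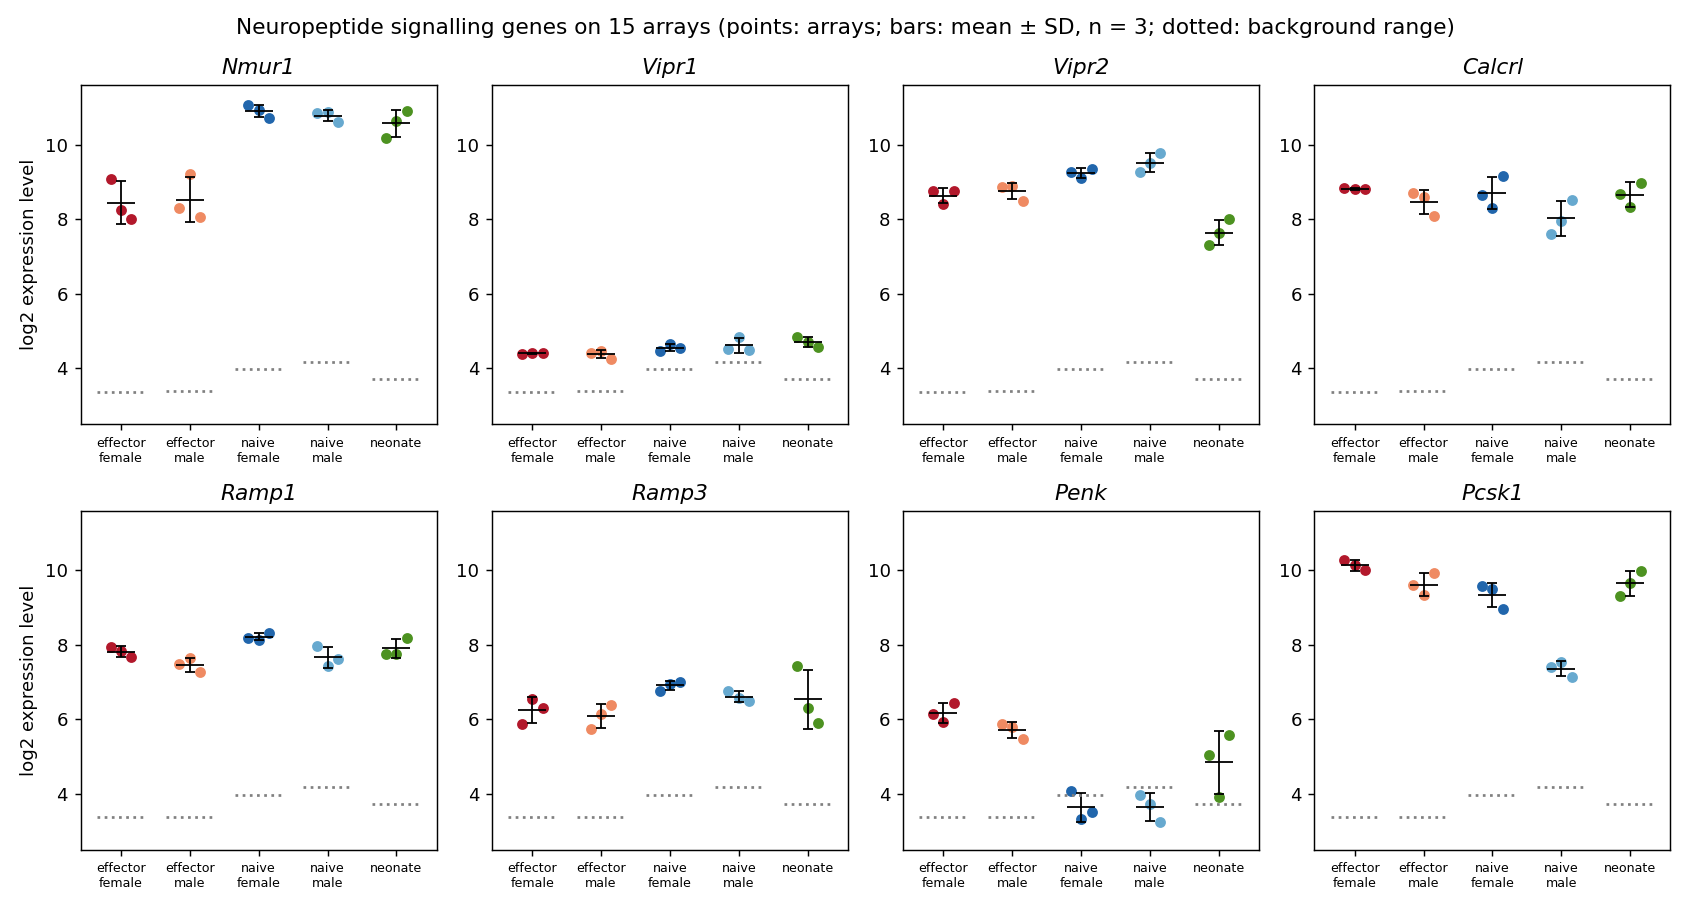
Log2 expression level of the 8 measured genes on each of the 15 arrays, by group from left to right: effector females, effector males, naive females, naive males and neonates. Points are arrays, bars are means ± SD (n = 3), and the dotted line is the upper end of the background range. Nmur1 lies lowest on the 6 effector arrays, Vipr2 lowest in neonates, Penk highest in effector adults, and Pcsk1 lowest in naive males.

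Nmur1, which encodes the receptor for neuromedin U, showed the largest fall among the 8 genes. Its level (feature 17225175) in effector adults was 7.99 at the lowest, 8.26 at the median and 9.20 at the highest of 6 arrays. In naive adults the lowest, median and highest of 6 arrays were 10.61, 10.86 and 11.05. Every effector array lay below every naive array, and the same was true of 20.1% of all genes in one direction or the other. The mean was 8.48 ± 0.53 in effector adults and 10.84 ± 0.15 in naive adults (SD, n = 6 each), a log2 difference of -2.36 ± 0.22 (SE; limma, Benjamini-Hochberg adjusted p = 9.83e-07), or 5.13-fold lower. The fall was similar in size in females (-2.46 ± 0.31) and males (-2.26 ± 0.31), with limma adjusted p-values of 6.08e-05 and 9.58e-05. All 6 effector arrays kept an Nmur1 signal above the background range.

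T cell marker genes also lay lower in effector adults. The summed level of the 10 markers was 9.65 to 10.2 in effector adults, 10.3 to 10.7 in naive adults and 10.4 to 10.9 in neonates, so effector arrays lay below the others and naive adults and neonates overlapped. Of 9 tested, 2 were lower in effector than in naive adults, Cd3g (-0.58) and Cd8b1 (-0.56), and 0 were higher (22.2%, beside 34.6% of all genes). Of the 10 markers, 9 lay above the background range in effector adults, 8 in naive adults and 9 in neonates, and Cd40lg lay in it in each state. Their part in the Nmur1 values was not tested.

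Neonates had Nmur1 levels of 10.17, 10.62 and 10.91. These lay among or just below the naive adult arrays and above all effector arrays. The naive adult minus neonate difference was 0.27 ± 0.27 (SE; limma adjusted p = 0.578), with a 95% interval from -0.30 to 0.83. The effector minus neonate difference was -2.09 ± 0.27 (limma adjusted p = 0.000109). Effector minus naive and effector minus neonate differences share the effector arrays and are not independent of each other. Nmu, which encodes the ligand precursor and was named for that role, had mean levels of 4.14 in effector adults, 4.33 in naive adults and 4.82 in neonates, and passed no test between these states.

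Vipr2, the gene of a VIP receptor, was the receptor gene that separated all 3 states. Its levels (feature 17279562) were 8.40 at the lowest, 8.74 at the median and 8.90 at the highest in effector adults, 9.10, 9.31 and 9.77 in naive adults, and 7.30, 7.62 and 8.00 on the neonatal arrays. No array of one state overlapped another state, with naive adults on top, effector adults between and neonates lowest. Of all genes, 20.1% did not overlap between effector and naive adults and 11.0% between naive adults and neonates. Between effector adults and neonates the share was 24.1%. Effector adults averaged 8.69 ± 0.20 and naive adults 9.38 ± 0.23 (SD, n = 6 each), a difference of -0.69 ± 0.14 (SE; limma adjusted p = 0.00175), or 1.61-fold lower. Naive adults exceeded neonates, which averaged 7.64 ± 0.35 (SD, n = 3), by 1.74 ± 0.18 (limma adjusted p = 2.24e-05), or 3.33-fold. Effector adults exceeded neonates by 1.05 ± 0.18 (limma adjusted p = 0.000895), or 2.07-fold.

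Within each sex the Vipr2 difference between effector and naive adults was smaller relative to its error. It was -0.77 ± 0.20 in males (limma adjusted p = 0.0125) and -0.61 ± 0.20 in females (limma adjusted p = 0.0597). Without effector male array 3 the male difference was -0.64 and its adjusted p 0.0674. The female difference passed the test under 5 of 16 alternative settings, with adjusted p-values from 0.0217 to 0.0468. It did not pass under the other 11. In the 6 fits that left out 1 female adult array its limma adjusted p was 0.0823 to 0.227. Vip, the gene of the ligand precursor, lay in the background range in naive adults and neonates (3.52 and 3.68) and at 3.50 in effector adults, and it was too dim to be tested.

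Vipr1, the gene of the other VIP receptor, passed no test between the 3 states. Its levels (feature 17523309) were 4.25 at the lowest, 4.40 at the median and 4.46 at the highest in effector adults, 4.46, 4.52 and 4.85 in naive adults, and 4.56 to 4.83 in neonates. Effector arrays lay just below naive arrays with no overlap, although the nearest values are equal when rounded. These states did not overlap in 20.1% of all genes. The difference of -0.20 ± 0.11 did not pass the test (SE; limma adjusted p = 0.165), with a 95% interval from -0.43 to 0.03, and was -0.06 once arrays were centred. The median level of the olfactory and vomeronasal receptor genes was 2.62 in effector adults and 3.16 in naive adults, and the part of this background in the differences of dim genes was not tested. The naive adult minus neonate difference was -0.12 ± 0.13 (limma adjusted p = 0.633). Effector minus neonate was -0.32 ± 0.13 (limma adjusted p = 0.101), with a 95% interval from -0.60 to -0.04. Arrays of these states did not overlap, as in 24.1% of all genes.

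Calcrl encodes the receptor that binds CGRP when paired with RAMP1 and adrenomedullin when paired with RAMP2 or RAMP3. Its levels (feature 17387385) were 8.09 at the lowest, 8.75 at the median and 8.84 at the highest in effector adults, 7.59, 8.40 and 9.15 in naive adults, and 8.31, 8.66 and 8.98 in neonates. The naive adult range enclosed both others. Effector minus naive was 0.28 ± 0.19 (SE; limma adjusted p = 0.268), with a 95% interval from -0.12 to 0.68. Effector minus neonate was -0.01 ± 0.23 (limma adjusted p = 0.978), and naive minus neonate was -0.29 ± 0.23 (limma adjusted p = 0.465).

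Ramp1, whose protein turns CALCRL into a CGRP receptor, spanned 7.26 to 7.94 (median 7.66) in effector adults, 7.42 to 8.32 (median 8.05) in naive adults and 7.75 to 8.20 in neonates (feature 17215697). The 3 states overlapped. Effector minus naive was -0.30 ± 0.13 (SE; limma adjusted p = 0.0882), with a 95% interval from -0.58 to -0.02, and a further quantile normalization of the arrays brought it to -0.50 (adjusted p = 0.00771). Naive adult females had levels of 8.19, 8.13 and 8.32, above the naive males at 7.97, 7.42 and 7.61, and effector females, at 7.94, 7.84 and 7.68, also lay above effector males, at 7.49, 7.63 and 7.26. Neither sex difference passed the test (0.54 ± 0.18, limma adjusted p = 0.337 in naive adults, and 0.36, adjusted p = 1 in effector adults). Groups of this size did not overlap between the sexes in 13.1% of all genes in naive adults and in 10.8% in effector adults.

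Ramp3, whose protein turns CALCRL into an adrenomedullin receptor, had levels of 5.75 at the lowest, 6.22 at the median and 6.56 at the highest in effector adults, 6.50, 6.77 and 7.01 in naive adults, and 5.90, 6.30 and 7.42 in neonates (feature 17247176). Effector and naive arrays overlapped slightly, and the neonatal arrays spread across both. Effector minus naive was -0.59 ± 0.22 (SE; limma adjusted p = 0.045). This call was lost with no filter on dim features (adjusted p = 0.0549), after centring each array (-0.45, adjusted p = 0.114), without the 3 least correlated arrays, which leaves 1 naive male array (-0.54, adjusted p = 0.182), and in 10 of the 12 fits that left out an adult array (adjusted p up to 0.11). Ramp2, named as the third partner gene, had means of 4.79 in effector adults, 5.01 in naive adults and 4.78 in neonates and passed no test between these states.

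Calcrl and Ramp3 are also expressed by endothelial cells. Of 12 endothelial marker genes, 11 lay above the background range in each state, and Emcn did not. Their summed level was 8.82 to 8.97 in effector adults, 8.43 to 9.29 in naive adults and 8.75 to 8.97 in neonates. Of the 11 endothelial markers tested, 5 were lower in effector than in naive adults, from -0.46 (Tie1) to -1.24 (Ptprb), and Cldn5 was among them at -1.06. Of all genes, 34.6% were called in this comparison and 10.9% were lower. Their part in the Calcrl and Ramp3 values was not tested.

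Penk, which encodes the precursor of the opioid enkephalin peptides, showed the largest rise among the 8 genes. Its levels (feature 17423030) were 5.48 at the lowest, 5.90 at the median and 6.44 at the highest in effector adults. In naive adults they were 3.25, 3.63 and 4.08, within the background range on 5 of 6 arrays. The 2 states did not overlap, as was so for 20.1% of all genes. The means were 5.94 ± 0.32 in effector adults and 3.65 ± 0.34 in naive adults (SD, n = 6 each), a difference of 2.30 ± 0.24 (SE; limma adjusted p = 3.97e-06), or 4.91-fold higher on the array scale. With naive adults in the background range, this fold says how far the signal rose above background and not by how much the RNA changed. Penk passed the filter on dim features through arrays where it was high, and with no filter its limma adjusted p was 5.58e-06. The rise was 2.53 ± 0.34 in females and 2.06 ± 0.34 in males, with limma adjusted p-values of 0.000127 and 0.000491.

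Penk was uneven among neonates, with levels of 5.04, 3.92 and 5.58 on arrays 1, 2 and 3. Arrays 1 and 3 lay well above the naive adults and array 2 among them. Naive adult minus neonate was -1.20 ± 0.29 (SE; limma adjusted p = 0.018), and this call was lost without neonatal array 1 (-1.10, adjusted p = 0.0765), without array 3 (-0.84, adjusted p = 0.0863) and when only the arrays compared were fitted (adjusted p = 0.0779). Effector minus neonate was 1.10 ± 0.29 (limma adjusted p = 0.0165), and this call was lost without neonatal array 2 (0.63, adjusted p = 0.111), without the 3 least correlated arrays (0.63, adjusted p = 0.0836) and with adult males alone (0.87, adjusted p = 0.0951). Both differences share the neonatal arrays. Oprd1, which encodes an enkephalin receptor and was named for that role, had means of 4.59 in effector adults, 4.54 in naive adults and 4.68 in neonates.

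Pcsk1 encodes prohormone convertase 1, which cuts peptide precursors, proenkephalin among them, inside secretory granules. Its promoter is shown because Pcsk1 moved with state, age and sex, and because it was the 1 promoter among the member windows found with a whole cyclic AMP response element (CRE), the DNA element bound by CREB family factors downstream of receptors that raise cyclic AMP. The window runs from 250 bases before to 50 bases after the gene's start, on the plus strand of RefSeq's GRCm38.p6, chr13:75089607-75089906, and capitals mark the CRE and its shorter core.
Pcsk1 promoter: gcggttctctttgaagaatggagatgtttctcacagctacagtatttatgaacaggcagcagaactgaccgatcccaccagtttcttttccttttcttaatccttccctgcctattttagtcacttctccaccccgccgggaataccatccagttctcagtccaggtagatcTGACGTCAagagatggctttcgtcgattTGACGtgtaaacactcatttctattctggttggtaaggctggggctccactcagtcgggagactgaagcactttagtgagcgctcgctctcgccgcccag

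Motifs were searched on both strands. The CRE, TGACGTCA, began at position -78 from the start and occurred in 1.79% of 32851 promoter windows of the same length. Its shorter form, TGACG, which is contained in the CRE on both strands and so overlaps it, matched at -78, -75 and -50 and occurred in 20.8% of windows. Neither an AP-1 element (TGANTCA, in 7.81% of windows) nor a GATA element (GATAAG, in 7.44%) was found in the Pcsk1 window. Of the 9 genes, 8 had a window in the RefSeq table. Penk had none, so its promoter was not searched. TGACG also matched in the windows of Vipr1, Ramp1 and Calca and had no match in those of Nmur1, Vipr2, Calcrl and Ramp3. A match describes the letters of the window and not a bound site.

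Pcsk1 levels (feature 17288677) differed with state, and females lay above males in naive and in effector adults, with a call in naive adults. Effector females had 10.28, 10.13 and 10.00 and effector males 9.59, 9.32 and 9.93, against 9.57, 9.49 and 8.97 in naive females and 7.41, 7.54 and 7.13 in naive males. Neonates lay between 9.31 and 9.98. Naive males stood apart below all other arrays, while naive females overlapped effector males.

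Over both sexes effector adults averaged 9.88 ± 0.36 and naive adults 8.35 ± 1.11 (SD, n = 6 each), a difference of 1.52 ± 0.16 (SE; limma adjusted p = 3.24e-06). In males the difference was 2.25 ± 0.22 (limma adjusted p = 3.91e-06). In females it was 0.80 ± 0.22 (limma adjusted p = 0.0254), and this call was lost after a further quantile normalization (0.70, adjusted p = 0.0693) and without effector female array 1 (adjusted p = 0.088), effector female array 2 (adjusted p = 0.0751) or naive female array 3 (0.61, adjusted p = 0.115). The female minus male difference of these responses was -1.46 ± 0.31 and did not pass the test over all genes (limma adjusted p = 0.547, unadjusted p = 0.000307). By the same test 0 of all genes tested passed, a percentage called of 0, while 866 genes had an unadjusted p under 0.05, so no difference in response between the sexes was shown for any of the 8 genes.

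Among naive adults Pcsk1 was the 1 gene of the 8 called between the sexes, beside 0.209% of all genes. Females averaged 9.34 ± 0.33 and males 7.36 ± 0.21 (SD, n = 3 each), a difference of 1.98 ± 0.22 (SE; limma adjusted p = 0.000559), or 3.94-fold higher in females. The difference stayed between 1.86 and 2.16 when any 1 naive array was left out. Naive male arrays 1 and 2 are among the 3 least correlated arrays, and the 1 naive male array left without them had the lowest Pcsk1 level of all arrays, 7.13. Among effector adults females averaged 10.14 ± 0.14 and males 9.62 ± 0.30 (SD, n = 3 each). All females lay above all males there too, where 10.8% of all genes had no overlap between the sexes in one direction or the other. The difference of 0.52 ± 0.22 did not pass the test (limma adjusted p = 1). None of the 8 genes was called between the sexes in effector adults by limma, beside 0.0308% of all genes, and 332 of all genes had an unadjusted p under 0.05.

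The comparison with neonates also depended on the sex of the adults. Naive adult minus neonate was -1.30 ± 0.19 over both sexes (SE; limma adjusted p = 0.000595), -2.29 for adult males alone (adjusted p = 2.02e-05) and -0.31 for adult females alone (adjusted p = 0.475). Effector minus neonate was 0.23 ± 0.19 (limma adjusted p = 0.432), with a 95% interval from -0.18 to 0.63. Because each neonatal array held RNA of both sexes, a neonatal difference between sexes was not measured.

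Mast cell and basophil marker genes were followed as well. Cpa3, a mast cell protease gene, averaged 8.91 in naive females and 7.10 in naive males (difference 1.81, limma adjusted p = 0.0019), and its naive adult minus neonate difference was -2.43. It was the 1 marker called of 7 tested between naive females and males, and the median difference of the 7 was -0.31, opposite in sign to Cpa3. The summed level of the 12 markers was 8.04 to 9.05 in effector adults, 8.30 to 9.42 in naive adults and 10.6 to 10.8 in neonates, with naive females at 9.22 to 9.42 and naive males at 8.30 to 8.64. This sum adds levels on the linear scale, so bright genes such as Cpa3 weigh most. The mean log2 level of the 12 overlapped between states, at 3.78 to 4.67 in effector adults, 3.94 to 4.27 in naive adults and 4.20 to 4.99 in neonates. In effector adults the summed level overlapped that of naive adults, and Cpa3 differed from naive adults by -0.90. Of the 12 markers, 9 lay above the background range in effector adults, 6 in naive adults and 8 in neonates, while Mcpt4, Mcpt2 and Fcer1a lay in it in each state. Their part in the Pcsk1 and Penk values was not tested.

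Markers of pulmonary neuroendocrine cells, which also make peptides and convertases, summed to 8.26 to 8.53 in effector adults, 7.80 to 8.07 in naive adults and 7.91 to 7.97 in neonates. Bright genes weigh most in this sum. The mean log2 level of the 11 markers overlapped between effector adults (4.42 to 4.59) and naive adults (4.22 to 4.53). Of 10 such markers tested, Uchl1 was higher in effector than in naive adults (6.91 against 4.18) and Resp18 lower (-0.39). The other 8 did not pass the test, and those called were 20% of the 10, beside 34.6% of all genes. The median difference of the 10 was -0.05, against 0.03 over all genes. Of the 11 with a feature, 10 lay above the background range in each state. Neuron and glia markers summed to 7.49 to 7.67 in effector adults, 7.50 to 7.70 in naive adults and 7.60 to 7.72 in neonates. The part of either list in the Penk and Pcsk1 rises was not tested.

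**Figure D2:**
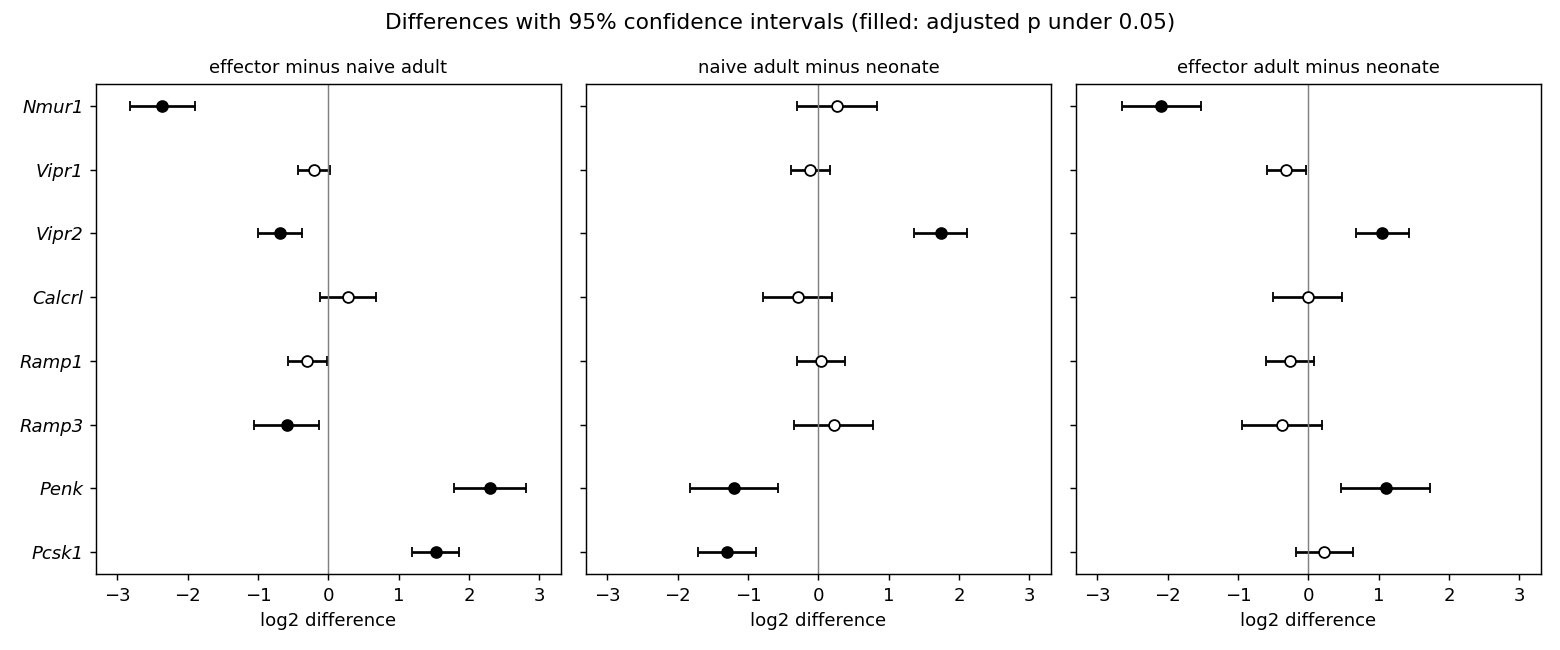
Log2 difference of each of the 8 measured genes in 3 comparisons: effector minus naive adult, naive adult minus neonate and effector adult minus neonate. Points are differences from limma, lines their 95% intervals, and filled points passed an adjusted p under 0.05. Nmur1 fell by 2.36 and Penk rose by 2.30 in effector against naive adults, and Vipr2 was 1.74 higher in naive adults than in neonates.

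Between naive adults and neonates, 3 of the 8 genes were called, beside 10.2% of all genes, where 4.12% of all genes were higher and 6.04% lower in naive adults. Vipr2 was higher and Pcsk1 and Penk were lower in naive adults. Of these, Vipr2 had groups with no overlap, as 11.0% of all genes did. Between effector adults and neonates, 3 were called as well, beside 20.6% of all genes, where 14.7% of all genes were higher and 5.93% lower. They were Vipr2 and Penk, higher, and Nmur1, lower in effector adults. Of all genes called, 71.2% were higher, and 83.6% after centring and 59.2% with no filter on dim features. Nmur1, Vipr2 and Vipr1 did not overlap there, Vipr1 without a call, as was so for 24.1% of all genes.

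Within females, 3 of the 8 genes were called between effector and naive adults (Penk and Pcsk1 higher, Nmur1 lower), beside 14.0% of all genes, with 10.2% higher and 3.77% lower. Of those called, 73.1% were higher, and 83.9% after centring. Within males, 4 were called (the same 3 and Vipr2, lower), beside 24.9% of all genes, with 18.7% higher and 6.25% lower. Of those called, 74.9% were higher, and 86.8% after centring. These counts rest on 3 arrays a group and share no arrays with each other.

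By group mean, the order of Nmur1 was naive female, naive male, neonate, effector male and effector female. Of these neighbours, neonates and effector males stood apart by more than their spread, while the 2 naive groups (10.90 and 10.78) and the 2 effector groups (8.44 in females and 8.52 in males) did not. Vipr2 ran from naive male and naive female through effector male and effector female to neonate, and neither pair of sexes passed the test. Penk ran from effector female and effector male through neonate to naive male and naive female, and neither pair of sexes passed the test. Pcsk1 ran from effector female through neonate, effector male and naive female to naive male, and of the steps between neighbours the last was the largest.

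The genes whose levels ran most like each member over the 15 arrays, by the root mean square distance of levels centred on each gene's mean, were as follows. For Nmur1 they were 5430437J10Rik (0.272), Ighm (0.390) and Fbxl21 (0.391), against a median distance of 1.22 over all genes. For Vipr2 they were Dach2 (0.194), Bcl2 (0.254) and Irf3 (0.279), against a median of 0.761. Like Vipr2, Dach2 had means of 6.80 in effector adults, 7.77 in naive adults and 6.02 in neonates.

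For Penk the nearest were Cpd (0.340), Dscaml1 (0.360) and Plekhg1 (0.376), against a median of 1.13. For Pcsk1 they were Nqo2 (0.429), Fastkd3 (0.516) and Parp9 (0.523), against 1.00, so Pcsk1 had no neighbour as near as the other 3 genes had. For the other members the nearest gene was Izumo1r for Vipr1 (0.0931, median 0.383), Nfkbil1 for Calcrl (0.215, median 0.501), Plaat3 for Ramp1 (0.167, median 0.439) and 4930480G23Rik for Ramp3 (0.248, median 0.567). These distances describe the 15 arrays, which share the contrasts above, and no test was made of them.

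**Figure D3:**
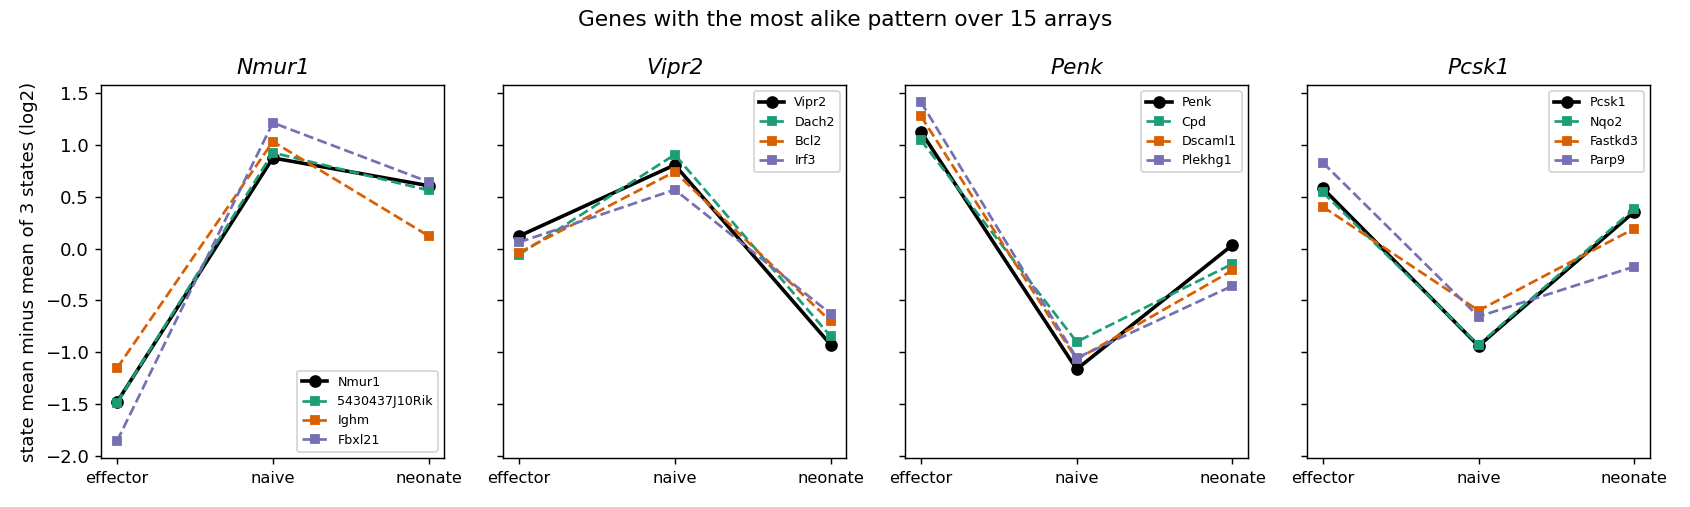
Mean log2 level of Nmur1, Vipr2, Penk and Pcsk1 and of their 3 most alike genes in effector adults, naive adults and neonates, each minus the gene's mean over the 3 states. In the Vipr2 panel all 4 lines peak in naive adults, and in the Penk panel all 4 are highest in effector adults.

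Of 22 other listed precursor genes, 15 were bright enough to test. Between effector and naive adults 0 were higher and 1 was lower (6.67%, beside 34.6% of all genes), with a median of -0.11 against 0.03 over all genes. No test was made between this or any later list and the other genes. That gene was Nmb, the neuromedin B precursor, at 7.09 in effector adults and 7.83 in naive adults (-0.75 ± 0.21 SE, limma adjusted p = 0.0137). Between naive adults and neonates 2 precursor genes were called (13.3%, beside 10.2% of all genes). Nmb was higher (0.93 ± 0.26, adjusted p = 0.0362), and Ghrh, the growth hormone-releasing hormone precursor, was lower (-0.57 ± 0.17, adjusted p = 0.0413). Of 27 listed receptors and partners, 16 were tested, and only Tacr1, the substance P receptor gene, was called between effector and naive adults (-0.36 ± 0.13, adjusted p = 0.0466), which is 6.25% beside 34.6% of all genes. Tacr1 was dim, at 4.08 in effector adults and 4.44 in naive adults, and the part of the background in this difference was not tested. No receptor of that list was called between naive adults and neonates in the limma fit, beside 10.2% of all genes.

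Of 28 peptide processing and breakdown genes, 25 were tested, and 6 were higher and 2 lower in effector than in naive adults, with a median of 0.01. These were 32% of the genes tested, near the 34.6% of all genes. Anpep, an aminopeptidase that also trims enkephalins, had 7.90 in effector adults and 4.71 in naive adults (3.19 ± 0.22 SE, limma adjusted p = 4.79e-08). Cpd, a carboxypeptidase that trims peptides after convertase cuts, was higher by 1.95 ± 0.18 (adjusted p = 9.31e-07), and Dpp3, a peptidase that degrades enkephalins, by 1.50 ± 0.30 (adjusted p = 0.00117). Furin, a convertase of the same family as PCSK1 and named here after its values were seen, had 10.57 in effector adults and 9.37 in naive adults (1.21 ± 0.17, adjusted p = 6.93e-05).

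Between naive adults and neonates, 0 processing genes were higher and 4 were lower in naive adults, with a median of -0.29 against -0.02 over all genes. They made up 16%, beside 10.2% of all genes called and 6.04% lower. These were Cpm, another carboxypeptidase gene (-1.75 ± 0.47 SE, limma adjusted p = 0.0279), Anpep (-1.30 ± 0.27, adjusted p = 0.00724), Furin (-1.27 ± 0.21, adjusted p = 0.00139) and Cpd (-0.75 ± 0.22, adjusted p = 0.0407).

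Of 24 adrenergic and catecholamine genes, 16 had a feature and 12 were bright enough to test. In effector against naive adults 1 gene was higher and 2 were lower (25%, beside 34.6% of all genes), with a median of -0.16. Adra1b, an alpha-1 adrenergic receptor gene, averaged 5.73 in effector adults, 4.47 in naive adults and 3.49 in neonates, where it lay in the background range. Its effector minus naive difference was 1.26 ± 0.17 (SE; limma adjusted p = 3.94e-05), and its naive minus neonate difference was 0.98 ± 0.20 (adjusted p = 0.0071). Maob, which breaks down monoamines, was lower in effector adults (-0.83 ± 0.26, adjusted p = 0.0223), as was Th, the catecholamine synthesis enzyme (-0.36 ± 0.12, adjusted p = 0.0307).

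Of 20 acetylcholine genes, 12 were tested, and 0 were higher and 2 lower in effector than in naive adults (16.7%, beside 34.6% of all genes). Ache, which encodes acetylcholinesterase, fell to 5.14 in effector adults, against 5.93 in naive adults (-0.80 ± 0.15 SE, limma adjusted p = 0.000681), and Chrna7, a nicotinic receptor subunit gene, differed by -0.29 ± 0.10 (adjusted p = 0.046). Between naive adults and neonates Ache was higher (0.62 ± 0.18, adjusted p = 0.0408) and Chrna1 lower (-0.61 ± 0.16, adjusted p = 0.0228).

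Downstream of the receptors, VIPR2 and CALCRL raise cyclic AMP, and NMUR1 couples mainly to Gq and calcium. Of 34 cyclic AMP genes, 28 were tested, and 8 were higher and 3 lower in effector than in naive adults, with a median of 0.04. These were 39.3% of the genes tested, near the 34.6% of all genes. The largest were Prkar2a, a protein kinase A subunit (0.89 ± 0.17 SE, limma adjusted p = 0.00102), Pde7a, a cyclic AMP phosphodiesterase (-0.80 ± 0.14, adjusted p = 0.000397), and Adcy5, an adenylyl cyclase (0.78 ± 0.23, adjusted p = 0.0154). Between naive adults and neonates 0 were higher and 2 were lower (7.14%, beside 10.2% of all genes), among them Crem, a CRE-binding factor, at 5.17 in naive adults and 5.98 in neonates (-0.81 ± 0.17, adjusted p = 0.0068).

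Of 25 Gq and calcium genes, 23 were tested, and 3 were higher and 5 lower in effector than in naive adults, with a median of 0.17. Their share was 34.8%, beside 34.6% of all genes. Prkcq, a protein kinase C gene, differed by -1.19 ± 0.17 (SE; limma adjusted p = 7.15e-05), Plcb2, a phospholipase activated by Gq, by -0.70 ± 0.12 (adjusted p = 0.000302), and Ppp3cc, a calcineurin subunit, by 0.69 ± 0.19 (adjusted p = 0.0105). Between naive adults and neonates 1 gene was called (4.35%, beside 10.2% of all genes), Gnaq, the Gq alpha subunit, which was lower in naive adults (-0.72 ± 0.16, adjusted p = 0.0114).

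Of 17 genes that switch receptors off, 14 were tested, and 2 were higher and 2 lower in effector than in naive adults (28.6%, beside 34.6% of all genes). The 4 encode RGS proteins, which speed the return of G proteins to their resting form. Rgs16 was higher by 1.34 ± 0.24 (SE; limma adjusted p = 0.000526) and Rgs1 by 0.70 ± 0.13 (adjusted p = 0.000773). Rgs18 differed by -0.89 ± 0.23 (adjusted p = 0.00826) and Rgs2 by -0.61 ± 0.11 (adjusted p = 0.000397). Rgs16 was also lower in naive adults than in neonates (-1.22 ± 0.29, adjusted p = 0.0161).

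**Figure D4:**
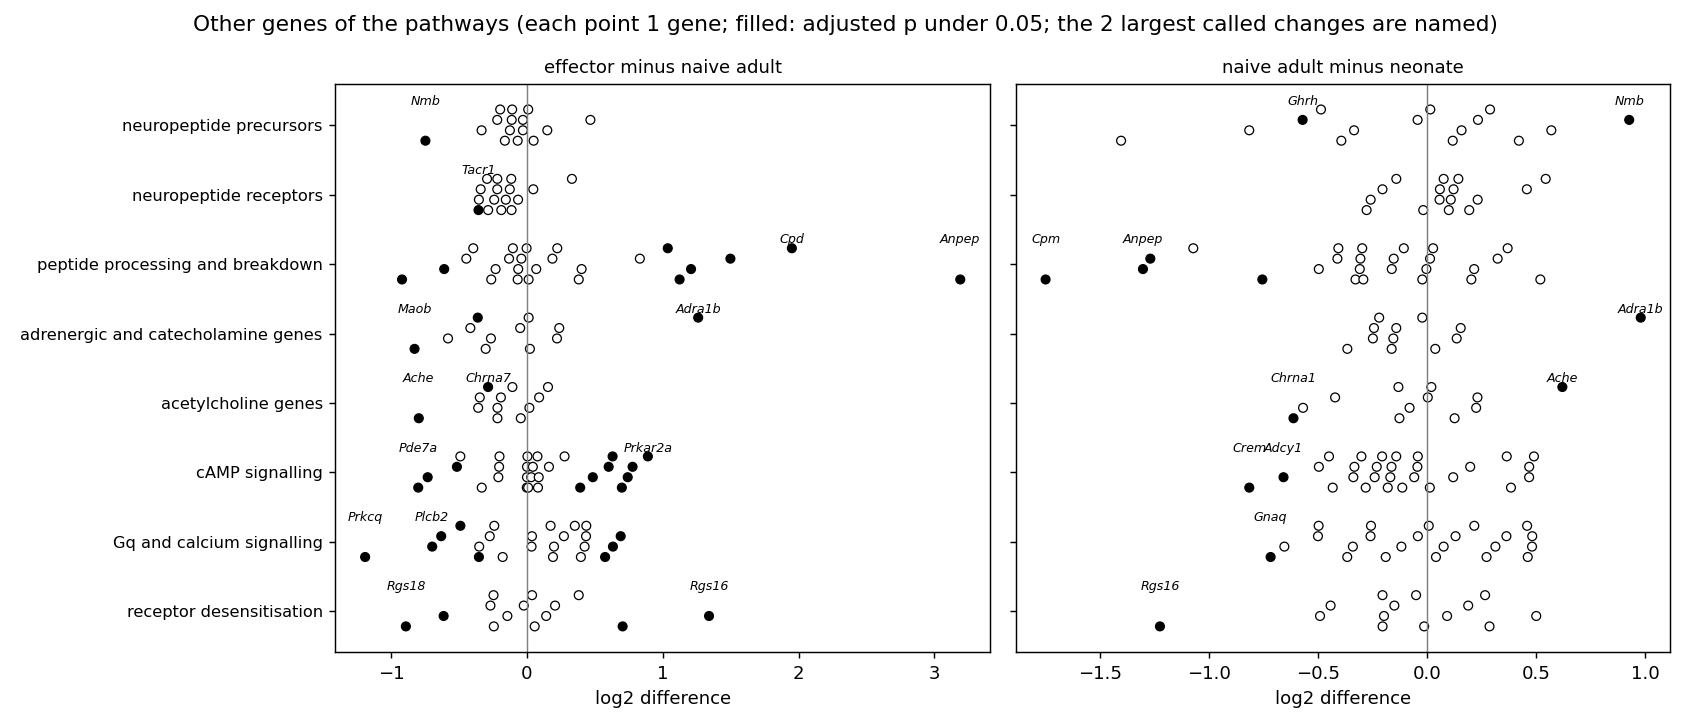
Log2 difference of each tested gene of the other pathway lists, in effector minus naive adults and in naive adults minus neonates. Points are genes, and filled points passed a limma adjusted p under 0.05. Peptide processing genes reach furthest upward in effector against naive adults (Anpep, 3.19), while the receptor list stays close to 0 with 1 called gene.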

How the data were processed

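The deposited values are log2 expression levels per array feature that the authors made with Affymetrix Expression Console and RMA, per the submitters' processing notes. Its versions and genome build were not stated in these sources. The table held 41345 features, of which 23521 had 1 gene symbol, 1814 several and 16010 none, and only those with 1 symbol were used. A RefSeq gene table held the identifiers of 23328 of them and changed 0 symbols. Features above the 40th percentile of their array on at least 3 arrays were kept, and of several features of a gene the one with the highest mean was used, leaving 16257 genes.

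All 15 arrays, in 5 groups of 3, entered 1 linear model of group means in limma 3.58.1 in R 4.3.3 (10 residual and 5.05 prior degrees of freedom). Sexes were weighted equally, tests were two-sided, and p was adjusted over all 16257 genes by the Benjamini-Hochberg method with a threshold of 0.05. SE is the moderated error of that fit. For arrays, their number limits the precision.

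The members, gene lists and tests were chosen with earlier results of these data known. All members were described. Of each other list, up to 4 called genes with the largest change were named, apart from those said to be named for another reason, and the 3 nearest genes by distance over arrays for Nmur1, Vipr2, Penk and Pcsk1, or 1 for each other member. Arrays sharing a replicate number did not deviate together (0 of 10 pairs above 0.1 for each number), so the numbers were not used to pair arrays. No batch or scan date was given in the sources used here. Alternatives were other filters, further normalization, array weights, another prior, fewer arrays, 1 adult sex, averaged features and a replicate block, and 1 chosen after seeing the data, leaving out the 3 least correlated arrays, which leaves 1 naive male array that is assumed to vary like the other groups. The fit was tested on simulated data. Promoter windows came from RefSeq GRCm38.p6. Figures were drawn with matplotlib 3.10.9. Some genes of the lists are not reported here.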

Additional observations from a re-analysis of the deposited data

Results flagged for a closer look

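Effector male array 3 stood apart from the other effector arrays in both genes singled out among 16 checks of a member within the 6 effector or the 6 naive adult arrays. Its Vipr1 level was 4.25, with the nearest other effector array at 4.39. Its Calcrl level was 8.09, with the nearest at 8.59. The gap took a share of 0.657 of the range for Vipr1 and 0.675 for Calcrl, against a critical value of 0.625. By chance about 1 in 20 such checks passes that value. Neither gene was called between effector and naive adults with or without this array.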

How the results depend on the processing

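Of 64 differences (8 genes in 8 comparisons), 38 kept their direction and their side of the threshold under every alternative run. Of 1192 recomputed values 26 lost a call, 7 gained one and 38 changed sign, and the cause was not tested. None of those that changed sign was called with or without the alternative. Not given above were Ramp3 in females, called when only the arrays compared were fitted (-0.67, limma adjusted p = 0.049), and Ramp3 over both sexes, lost with the replicate number as a block (adjusted p = 0.0625).

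The values that changed sign follow. Centring gave 0.094 for Calcrl in effector adults minus neonates and 0.0072 for Penk in naive females minus males. Further quantile normalization gave -0.038 for Calcrl in effector minus naive females and 0.022 for Penk in naive females minus males, which array weights put at 0.064. Adult females alone gave 0.046 for Calcrl in naive adults and 0.16 in effector adults, each minus neonates. Adult males alone gave -0.23 for Ramp1 in naive adults and -0.034 for Pcsk1 in effector adults, each minus neonates. Without the 3 least correlated arrays, where naive males are 1 array assumed to vary like the other groups, Calcrl was -0.047 in effector minus naive males and 0.16 in the response difference, Vipr1 was -0.030 in the response difference and 0.058 in naive females minus males, Ramp1 was -0.057 in naive adults minus neonates, and Penk was 0.39 in naive females minus males.

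With 1 array left out, Calcrl ranged from -0.083 to 0.34 in effector minus naive females and from -0.18 to 0.15 in effector adults minus neonates. Ramp3 ranged from -0.69 to 0.066 in effector and from -0.10 to 0.66 in naive adults minus neonates, and Ramp1 from -0.039 to 0.19 in naive adults minus neonates. The response difference ranged from -0.53 to 0.14 for Nmur1, from -0.024 to 0.15 for Vipr1 and from -0.31 to 0.041 for Ramp3. Females minus males ranged from -0.41 to 0.26 for Nmur1, from -0.032 to 0.073 for Vipr1 and from -0.014 to 0.34 for Ramp3 in effector adults, and from -0.13 to 0.052 for Vipr1 and from -0.24 to 0.14 for Penk in naive adults.

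With the replicate block the number of members called between effector and naive adults was 4, the response difference between the sexes had 1 gene called of all tested (0 without the block), and no other member call changed. Response calls also numbered 1 with a stricter dim filter, after centring, with array weights and without the 3 least correlated arrays. When only the arrays compared were fitted, 5 members instead of 3 were called in females, and all-gene calls were 676 for naive adults against neonates (1652 in the fit to all arrays) and 8 for the sexes in naive (34) and in effector adults (5).

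With array weights, all-gene calls were 3745 in females (2276), 705 for naive adults against neonates, 2068 for effector adults against neonates (3346), and 19 and 11 for the sexes in naive and effector adults. With adult females alone they were 935 for naive and 1942 for effector adults against neonates. Without the 3 least correlated arrays they were 2239 in males (4048), again with 1 naive male array.

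Leaving out 1 array gave 4 to 5 members called between effector and naive adults, 2 to 3 in females, 3 to 4 in males, and 2 to 3 for naive and for effector adults against neonates. All-gene calls ranged from 1358 (without effector female array 2) to 1800 in females, 2607 (without effector male array 3) to 4120 in males, 1031 (without neonatal array 1) to 1856 for naive adults against neonates, 2061 (without neonatal array 2) to 3761 for effector adults against neonates, 16 (without naive female array 3) to 99 (without naive male array 3) for the sexes in naive adults, and 0 to 8 for the response difference.

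With 3 arrays a group, signal over background limits Penk in naive adults, Adra1b in neonates and the dim precursor, receptor and adrenergic genes.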
